A study of Mus musculus with 8 samples.

Results

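ATP-binding cassette (ABC) transporters are membrane proteins that bind and hydrolyse ATP, most of them to move lipids, sterols, bile salts, drugs, metabolites or metal complexes across a membrane. The genes described here were those whose platform symbol was Abc followed by a letter from a to g and a number. There were 36 of them among 12393 genes with a single-symbol probe set: 7 in subfamily A, 8 in B, 8 in C, 3 in D, 1 in E, 3 in F and 6 in G. They were covered by 65 probe sets, of which the brightest (highest mean over all arrays) stood for each gene; 21 genes had 1 probe set and 15 had more, up to 7 for Abcc5.

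RNA of mouse intestinal epithelial cells was measured on 8 Affymetrix arrays, 2 for each of 4 genotypes, in a study of how the kinase IKKα acts on crypt expansion driven by β-catenin. The groups were wild type (WT); mice with the AA allele of IKKα on both chromosomes (IKKa-AA), in which residues needed for activation of the kinase are replaced; mice with tamoxifen-inducible stabilised β-catenin restricted to the intestinal epithelium (bCATca); and bCATca_IKKa-AA mice with both alleles, called double mutants below. Mice of all 4 groups, WT included, received tamoxifen by gavage on 5 days, had a mixed strain background of C57BL/6 x 129Sv x FVB, and gave cells at day 15 counted from the first dose. The promoter that drives the inducible allele, the age of the mice, the length of gut used and whether replicates were separate mice are not given in the sources used here. The p-values therefore rest on the spread among these arrays, which may be technical.

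In the intestine, several ABC transporters of the brush border pump drugs and food-borne compounds back into the lumen. Abcg5 and Abcg8 return plant sterols and cholesterol to the lumen as a heterodimer, and Abca1 loads cholesterol onto apolipoprotein A-I at the basolateral side. Some members of subfamilies B and D work in mitochondria, lysosomes and peroxisomes. Members of subfamilies E and F have no membrane domain and act on ribosomes and translation. Cells along the crypt-villus axis carry different sets of these proteins, and nuclear receptors such as the pregnane X receptor and the liver X receptors regulate some of the genes.

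Promoter windows of 300 bases, from 250 before to 50 after an annotated start (RefSeq, mouse build GRCm38.p6), were found for 27 of the 36 genes, 33 windows in all. Those of Abcb1a and Abcb1b are shown because these paralogues encode the mouse P-glycoproteins of which Abcb1a read well above and Abcb1b near background; those of Abca3 and Abcd3 because both genes fell in bCATca; and those of Abcg5 and Abcg8 because the pair share 209 bases of their windows, read on opposite strands. Sequences run 5′ to 3′ and capitals mark a motif match.
Abcb1a, chr5:8566841-8567140, plus strand: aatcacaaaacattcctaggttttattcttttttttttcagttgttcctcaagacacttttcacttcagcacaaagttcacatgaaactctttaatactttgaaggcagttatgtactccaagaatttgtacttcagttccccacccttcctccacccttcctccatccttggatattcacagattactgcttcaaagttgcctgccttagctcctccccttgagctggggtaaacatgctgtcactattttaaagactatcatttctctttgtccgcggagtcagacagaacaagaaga
Abcb1b, chr5:8797897-8798196, plus strand: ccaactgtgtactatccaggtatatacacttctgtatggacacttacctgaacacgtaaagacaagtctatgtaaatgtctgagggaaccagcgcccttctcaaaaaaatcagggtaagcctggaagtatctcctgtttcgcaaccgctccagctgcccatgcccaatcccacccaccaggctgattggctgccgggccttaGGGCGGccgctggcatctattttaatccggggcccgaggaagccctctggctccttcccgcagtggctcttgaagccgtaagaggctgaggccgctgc
Abca3, chr17:24351773-24352072, plus strand: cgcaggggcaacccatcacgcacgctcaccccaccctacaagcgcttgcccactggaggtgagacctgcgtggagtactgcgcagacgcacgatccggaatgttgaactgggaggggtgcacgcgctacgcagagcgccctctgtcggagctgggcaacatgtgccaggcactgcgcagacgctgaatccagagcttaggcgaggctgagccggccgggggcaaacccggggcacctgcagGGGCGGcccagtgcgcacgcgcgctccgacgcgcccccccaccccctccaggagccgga
Abcd3, chr3:121815253-121815552, minus strand: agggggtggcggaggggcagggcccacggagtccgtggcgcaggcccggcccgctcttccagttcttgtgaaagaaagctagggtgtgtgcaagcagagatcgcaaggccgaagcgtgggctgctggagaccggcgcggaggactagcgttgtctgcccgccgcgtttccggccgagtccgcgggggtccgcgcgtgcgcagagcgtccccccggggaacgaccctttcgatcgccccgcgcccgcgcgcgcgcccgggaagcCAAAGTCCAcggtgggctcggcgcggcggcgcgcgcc
Abcg5, chr17:84682962-84683261, minus strand: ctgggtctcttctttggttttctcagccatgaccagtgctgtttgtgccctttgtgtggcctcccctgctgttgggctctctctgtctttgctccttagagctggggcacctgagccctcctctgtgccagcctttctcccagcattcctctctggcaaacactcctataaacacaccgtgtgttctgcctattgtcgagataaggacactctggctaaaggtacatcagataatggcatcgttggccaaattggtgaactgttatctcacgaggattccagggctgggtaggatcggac
Abcg8, chr17:84682871-84683170, plus strand: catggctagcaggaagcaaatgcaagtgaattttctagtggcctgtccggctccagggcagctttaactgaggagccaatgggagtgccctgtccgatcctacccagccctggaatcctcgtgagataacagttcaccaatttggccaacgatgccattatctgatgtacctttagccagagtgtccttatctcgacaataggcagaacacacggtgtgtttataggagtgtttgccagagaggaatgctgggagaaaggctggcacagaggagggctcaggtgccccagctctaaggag
Abcd3 and Abcg8 each have a second window, not shown, which holds none of the motifs searched. The capitals are a GC box (GGGCGG) in Abcb1b and Abca3 and an HNF4 motif (CAAAGTCCA) in Abcd3. Both strands of all windows were searched. The GC box lay in 19 of the 33 windows against 35.7% of all 32851 windows, and the HNF4 motif in 1 against 0.5%. A TCF/LEF motif (CTTTGAT), the element through which β-catenin acts, lay in 0 of the 33 windows against 3.7% of all windows, and a CDX2 motif (TTTATGG) in 0 against 2.7%. The nuclear receptor element TGACCT lay in 7 windows, those of Abcb6, Abcb11, Abcc2, Abcc10 and Abcg2, against 16.3% of all windows. These are matches of letters in a window and not binding sites. No window was at hand for Abcb8, Abcc1, Abcc3, Abcc6, Abcc8, Abcd2, Abcd4, Abcg1 and Abcg4.

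All levels are on the log2 intensity scale with n = 2 arrays per group. A change is the difference between the log2 means of the groups compared, given with its standard error (SE) from the model. A gene was called, and is said to have risen or fallen, at a limma adjusted p under 0.05 over all 12393 genes. The arrays had median intensities of 50.9 to 53.8, and their number limits the precision. WT replicate 1 read Xist at 9.18 and Y-linked genes at 2.02 to 2.56, the reverse of the other 7 arrays, so the WT arrays are not repeats of the same mouse. In IKKa-AA replicate 1 the summed intensity of 10 enterocyte markers was 38900, against 50810 in replicate 2. For 9 T cell and intraepithelial lymphocyte markers it was 1989 against 7562, and for 5 B and plasma cell markers 277.6 against 3821. Igha, the brightest of the 5, read 7.43 against 11.70, Jchain 3.84 against 8.68 and Cd79a 4.17 against 4.60. Cd79b (5.94 against 5.58) and Ms4a1 (3.56 against 3.24) went the other way. The double mutants, which also carry the AA allele, lay nearer to replicate 1 on each list. Their sums, in the same order, were 37140 and 41910, 1062 and 784.6, and 118.5 and 119.1. Replicate 2 lay between the WT arrays for T cell markers, and between the bCATca arrays for B and plasma cell markers. Which IKKa-AA array is unusual cannot be told from these sums. The 3′ control probe set for 18S RNA read 11.31 to 12.39 and the 5′ set 9.66 to 11.43; in all 3 such sets WT replicate 1 was the lowest array and the IKKa-AA arrays were the highest. Vil1, which encodes the brush border protein villin, read 11.84 to 12.21 on all arrays. Of the 10 enterocyte markers it changed least in bCATca against WT (-0.33, against a median of -1.225). The ileal markers Slc10a2, Fabp6 and Fgf15 were near background on all 8 arrays, while Gata6, also on the ileal list, read 8.90 to 9.37. In such bulk RNA, fewer cells of a type and less RNA per cell cannot be told apart.

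Near background means at or under 4.03, the highest reading of a transcript taken as absent (Xist on 7 arrays, Y-linked genes on the other). By their group means, 8 members were near background in all 4 groups: Abca4, which is known from photoreceptors, Abca8a, Abca8b, Abcb11, Abcb1b, Abcc8, Abcc9 and Abcd2. Abcb11, the bile salt export pump of the liver, read 3.17 to 3.82 over the 8 arrays. Abcc8 and Abcc9, the sulfonylurea receptor subunits of potassium channels, read 3.37 to 3.70 and 2.42 to 2.69. The other 28 genes were above background in at least 1 group and carry the results.

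Among the drug efflux genes, 1 rose and 1 fell past the test with stabilised β-catenin. Abcc1, which encodes the basolateral efflux pump MRP1, rose 3.38-fold in bCATca against WT, and Abcb1a, which encodes the apical pump P-glycoprotein, fell 4.78-fold. Abca3, known for lipid loading of lamellar bodies, fell 1.78-fold and Abcd3, a peroxisomal transporter of fatty acids, fell 1.79-fold. These 4 of 36 members (11.1%) were called, 1 higher and 3 lower, where 9.29% of all genes were called, 5.74% higher and 3.55% lower. The members' share of calls was thus near that of all genes. At an unadjusted p under 0.05 there were 11 members (30.6%), 2 higher and 9 lower, against 29.4% of all genes. Abca8a and Abcb11, among the 9 lower, are near background in all groups. The median change of the members was -0.18 against 0.01 for all genes, and 27 of 36 members lay below 0, against 49.0% of all genes. Of the 28 members above background, 19 lay below 0.

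**Figure D1:**
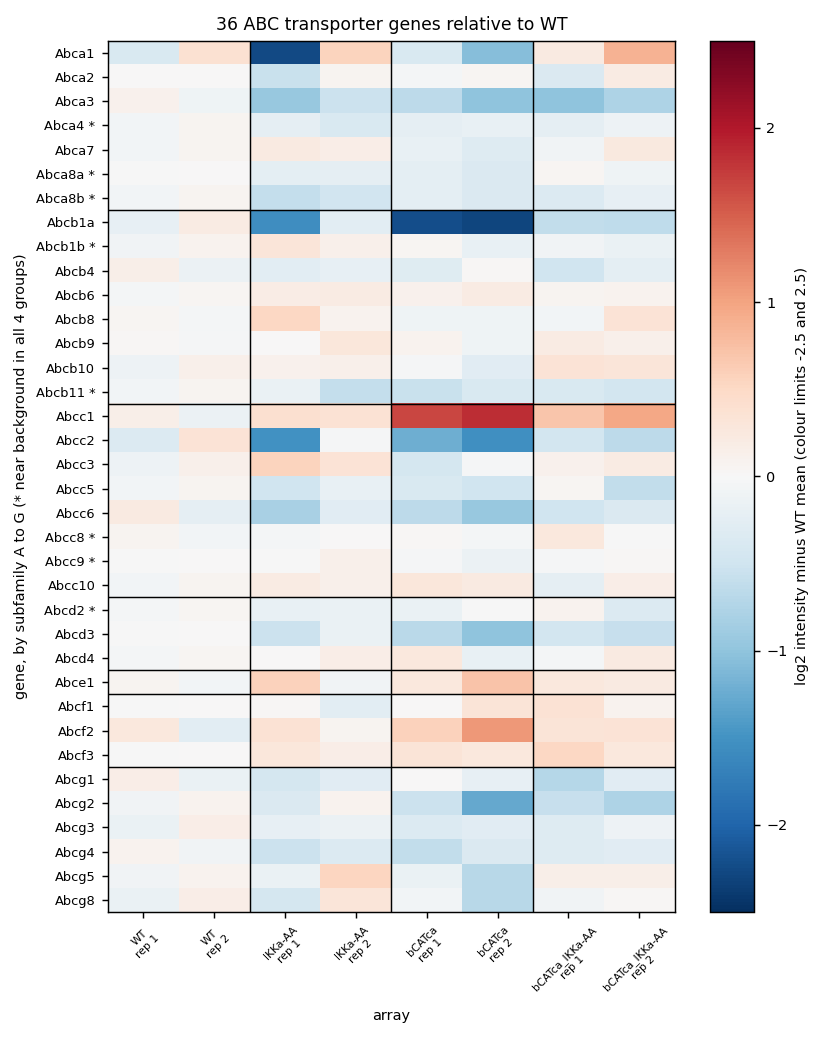
Colour map of 36 ABC transporter genes (rows, by subfamily) on the 8 arrays (columns), as log2 intensity minus the WT mean on a scale from -2.5 to 2.5; stars mark the 8 genes near background in all groups. Abcb1a is low on both bCATca arrays and Abcc1 is high on both, while Abca1 is low on IKKa-AA replicate 1 alone among the IKKa-AA arrays.

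Abcc1 read 5.45 and 5.15 (WT), 5.70 and 5.65 (IKKa-AA), 6.97 and 7.14 (bCATca), and 5.99 and 6.27 (double mutants). The bCATca arrays were the highest of the 8 and the double mutants lay between them and the rest, with no overlap. The change in bCATca against WT was 1.76 (SE 0.16, 95% interval 1.38 to 2.14, limma adjusted p = 0.0011), and Abcc1 was called with any 1 of the 8 arrays left out, at a limma adjusted p of at most 0.0141. Its other probe set lay near background on 6 of 8 arrays, with readings from 3.55 to 4.38, and its change was 0.54 (limma adjusted p = 0.123 over all probe sets). With the mean of its probe sets, Abcc1 was called at 1.15 in place of 1.76 (limma adjusted p = 0.00759).

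Abcb1a read 10.37 and 10.80 (WT), 9.04 and 10.32 (IKKa-AA), 8.38 and 8.29 (bCATca), and 9.97 and 9.95 (double mutants). The bCATca arrays were the lowest of the 8, the double mutants lay below both WT arrays, and the IKKa-AA arrays lay on either side of the double mutants. The change in bCATca against WT was -2.26 (SE 0.35, 95% interval -3.07 to -1.44, limma adjusted p = 0.00942). The call was lost without WT replicate 2 (change -2.04, limma adjusted p = 0.0801) and without bCATca replicate 2 (-2.21, limma adjusted p = 0.0714). A second Abcb1a probe set had the same order of groups: 9.40 and 9.68 (WT), 7.90 and 9.03 (IKKa-AA), 7.17 and 7.08 (bCATca), and 8.87 and 8.84 (double mutants). Its change in bCATca was -2.42 (limma adjusted p = 0.00484 over all probe sets). The paralogue Abcb1b stayed at 2.21 to 2.71 on all arrays, near background.

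**Figure D2:**
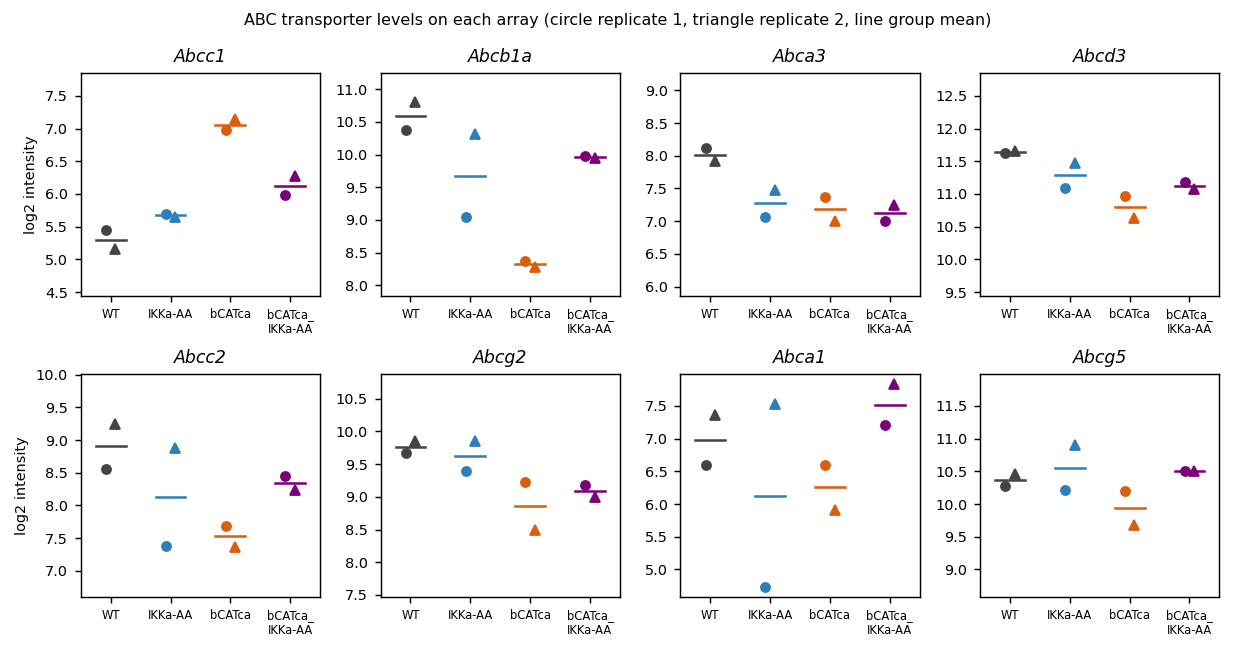
Log2 intensity (y axis, the same span of 3.4 units in each panel) of 8 ABC transporter genes in the 4 groups (x axis); circles are replicate 1, triangles replicate 2 and lines group means. Abcc1 is highest and Abcb1a lowest in bCATca, and for both genes the double mutants lie between bCATca and WT; Abca1 spans 2.79 units within IKKa-AA.

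Other efflux pumps had lower means in bCATca than in WT without passing the test. Abcc2, the apical pump MRP2 for conjugates, read 8.56 and 9.25 (WT), 7.38 and 8.88 (IKKa-AA), 7.69 and 7.37 (bCATca), and 8.45 and 8.24 (double mutants). Its bCATca arrays lay below both WT arrays, with a difference of -1.38 (SE 0.43, limma adjusted p = 0.0807). Abcg2, the apical breast cancer resistance protein, read 9.67 and 9.86 (WT), 9.40 and 9.85 (IKKa-AA), 9.22 and 8.49 (bCATca), and 9.18 and 8.996 (double mutants). Its difference between bCATca and WT was -0.91 (SE 0.25, limma adjusted p = 0.0585). Abcc6, whose product drives release of ATP from cells, had a difference of -0.80 (SE 0.23, limma adjusted p = 0.0629). The differences of Abcc2, Abcc6 and Abcg2 were the same in the fits without IKKa-AA replicate 1 or 2. Those fits changed only the spread that the differences were tested against, and with it whether they were called.

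Abcc3, the basolateral pump MRP3 for bile salts and glucuronides, read 9.01 and 9.27 (WT), 9.70 and 9.48 (IKKa-AA), 8.70 and 9.11 (bCATca), and 9.25 and 9.35 (double mutants). Its WT and bCATca arrays overlapped (difference -0.23, SE 0.18, limma adjusted p = 0.427). Abcc5, a pump for cyclic nucleotides, had 6 probe sets above background that split 3 and 3 in sign (-0.43 to 0.75), and Abcc10 had a difference of 0.25 (limma adjusted p = 0.326). The subfamily C median was -0.16, with 1 member of 8 called.

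Of the sterol and lipid transporters, Abca3 was called. It read 8.12 and 7.92 (WT), 7.06 and 7.48 (IKKa-AA), 7.37 and 7.004 (bCATca), and 7.004 and 7.24 (double mutants). Both WT arrays were above the 6 others, which overlapped. The change in bCATca was -0.83 (SE 0.20, limma adjusted p = 0.039), and a second probe set gave -0.63 without a call. The call held in 2 of 8 fits with an array left out, those without an IKKa-AA array. It was lost without WT replicate 1 (limma adjusted p = 0.167), WT replicate 2 (0.137), bCATca replicate 1 (0.0513), bCATca replicate 2 (0.21) or either double mutant array (0.0635 each), and also with the replicate block (0.0689), a pseudocount of 16 (0.05) or the mean of its probe sets (change -0.50, 0.0561).

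Abca1 was the member with the widest spread between replicates. It read 6.60 and 7.36 (WT), 4.73 and 7.53 (IKKa-AA), 6.60 and 5.91 (bCATca), and 7.21 and 7.84 (double mutants). The double mutants lay above both bCATca arrays, WT lay within the range of IKKa-AA, and replicate 1 of WT and of bCATca gave the same reading. The difference between bCATca and WT was -0.72 with an SE of 0.76 (limma adjusted p = 0.558). Abca2 and Abca7, also lipid transporters, had differences of 0.00 and -0.26 and were not called. In subfamily A, 6 of 7 members lay below 0 in bCATca, with a median of -0.31, and 3 of these 6 (Abca4, Abca8a and Abca8b) are near background.

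The sterol pair of the brush border differed little. Abcg5 read 10.28 and 10.46 (WT), 10.21 and 10.90 (IKKa-AA), 10.20 and 9.67 (bCATca), and 10.51 and 10.51 (double mutants). Abcg8 read 8.03 and 8.36 (WT), 7.76 and 8.50 (IKKa-AA), 8.13 and 7.50 (bCATca), and 8.11 and 8.23 (double mutants). For both, bCATca replicate 2 was the lowest array. The differences between bCATca and WT were -0.43 for Abcg5 (SE 0.25, 95% interval -1.01 to 0.14, limma adjusted p = 0.281) and -0.37 for Abcg8 (SE 0.28, 95% interval -1.02 to 0.27, limma adjusted p = 0.405).

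Abcg1, which exports cholesterol to lipoprotein particles, differed by -0.10 (limma adjusted p = 0.773), and Abcg4, its close relative, by -0.49 (limma adjusted p = 0.0772). All 6 members of subfamily G had lower means in bCATca than in WT, with a median of -0.40 and 0 called; at an unadjusted p under 0.05 there were 2, Abcg2 and Abcg4. Abcb4, the canalicular phospholipid flippase, read 4.22 to 4.85 over the 8 arrays, with a difference of -0.14 (limma adjusted p = 0.632).

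Among transporters of organelles, Abcd3 was called. This peroxisomal protein carries branched and long-chain acyl groups and bile acid precursors, and its gene read 11.62 and 11.66 (WT), 11.10 and 11.47 (IKKa-AA), 10.97 and 10.63 (bCATca), and 11.17 and 11.07 (double mutants). The WT arrays were the highest and the bCATca arrays the lowest, and double mutants and IKKa-AA overlapped between them. The change in bCATca was -0.84 (SE 0.18, limma adjusted p = 0.0266). The call was lost without WT replicate 1 (limma adjusted p = 0.111), WT replicate 2 (0.15), bCATca replicate 2 (0.16) or either double mutant array (0.0522 each), and with the replicate block (0.0527).

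Abcd4, which acts in lysosomal release of vitamin B12, read 6.37 to 6.81. The mitochondrial transporters Abcb6, Abcb8 and Abcb10, which take part in haem and iron handling, read 6.68 to 6.94, 7.12 to 7.75 and 8.08 to 8.72, and the lysosomal peptide transporter Abcb9 read 6.31 to 6.69. None of these 5 was called in a comparison, and their differences between bCATca and WT ran from -0.16 to 0.16. A dim Abcb10 probe set, near background in 3 of the 4 groups, was called in bCATca against WT at -0.75 (limma adjusted p = 0.0149 over all probe sets), against -0.16 and -0.38 for the brighter pair.

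The members that act in translation had higher means in bCATca, without a call. Abce1, which splits ribosomes for recycling, read 8.54 and 8.42 (WT), 9.05 and 8.40 (IKKa-AA), 8.74 and 9.19 (bCATca), and 8.75 and 8.70 (double mutants) (difference between bCATca and WT 0.48, SE 0.23, limma adjusted p = 0.203). Abcf2 read 7.02 and 6.50 (WT), 7.13 and 6.83 (IKKa-AA), 7.33 and 7.84 (bCATca), and 7.09 and 7.10 (double mutants). Its bCATca arrays were the highest of the 8 (difference 0.82, SE 0.23, limma adjusted p = 0.0583). Abcf1, which takes part in translation initiation, and Abcf3 differed by 0.16 and 0.29 (limma adjusted p = 0.57 and 0.208). The 5 Abcf1 probe sets above background split 3 and 2 in sign.

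**Figure D3:**
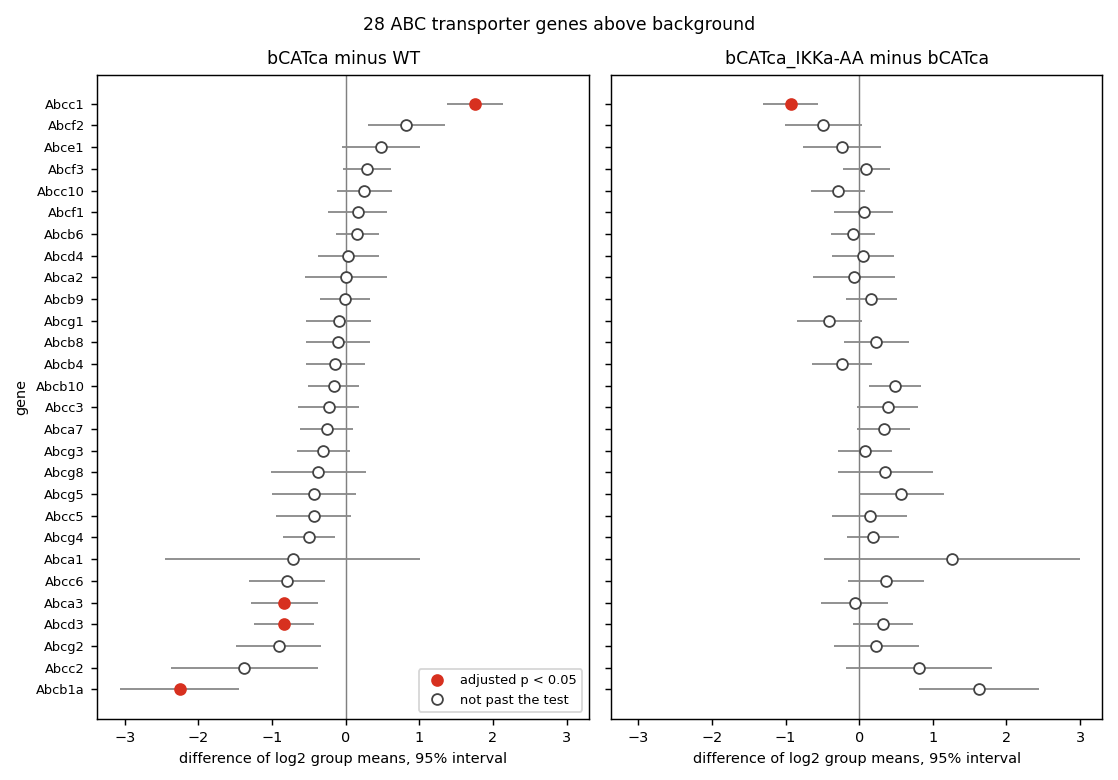
Differences of log2 group means (x axis) with 95% intervals for the 28 ABC transporter genes above background, ordered by their change in bCATca; left, bCATca minus WT, right, double mutants minus bCATca, with filled points called at a limma adjusted p under 0.05. Abcc1 at 1.76 and Abcb1a at -2.26 form the ends of the left panel, and Abcc1 at -0.93 is the single call on the right; both panels use the same bCATca arrays.

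With the AA allele beside stabilised β-catenin, 1 member was lower past the test. Abcc1 fell 1.91-fold in double mutants against bCATca (change -0.93, SE 0.16, limma adjusted p = 0.0427). It was 1 of 36 members (2.78%), where 1.21% of all genes were called and 0.807% were called lower. At an unadjusted p under 0.05 there were 3 members (8.33%), Abcc1, Abcb1a and Abcb10, against 14.8% of all genes. Of the 8 fits with an array left out, the Abcc1 call held in the 2 without an IKKa-AA array (limma adjusted p = 0.0253 each). It was lost, at limma adjusted p from 0.072 to 0.235, when any 1 of the WT, bCATca or double mutant arrays was left out, while the change stayed between -1.07 and -0.79. It was also lost after quantile or cyclic loess normalisation, with the mean of a gene's probe sets, with every probe set tested and with a replicate block, at limma adjusted p of up to 0.218. With the mean of its probe sets the change was -0.48.

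Abcb1a was 3.10-fold higher in double mutants than in bCATca, with both double mutant arrays above both bCATca arrays. The difference of 1.63 (SE 0.35, 95% interval 0.82 to 2.44) missed the threshold over all genes at a limma adjusted p of 0.0762. Its second probe set gave 1.73. Over the fits with an array left out the difference ran from 1.59 to 1.68, and whether it was called varied among them. With only the arrays of the groups compared Abcb1a was called (limma adjusted p = 0.00499). That setting called 2.67% of all genes. Abcb10, a mitochondrial member, differed by 0.49 (limma adjusted p = 0.186), Abcc2 by 0.81 (0.429), Abca1 by 1.26 (0.485), Abcg5 by 0.57 (0.339), Abcd3 by 0.32 (0.442) and Abca3 by -0.06 (0.914). The median over the members was 0.10, against 0.00 for all genes. This comparison and bCATca against WT share the bCATca arrays, so opposite signs in them are not independent.

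**Figure D4:**
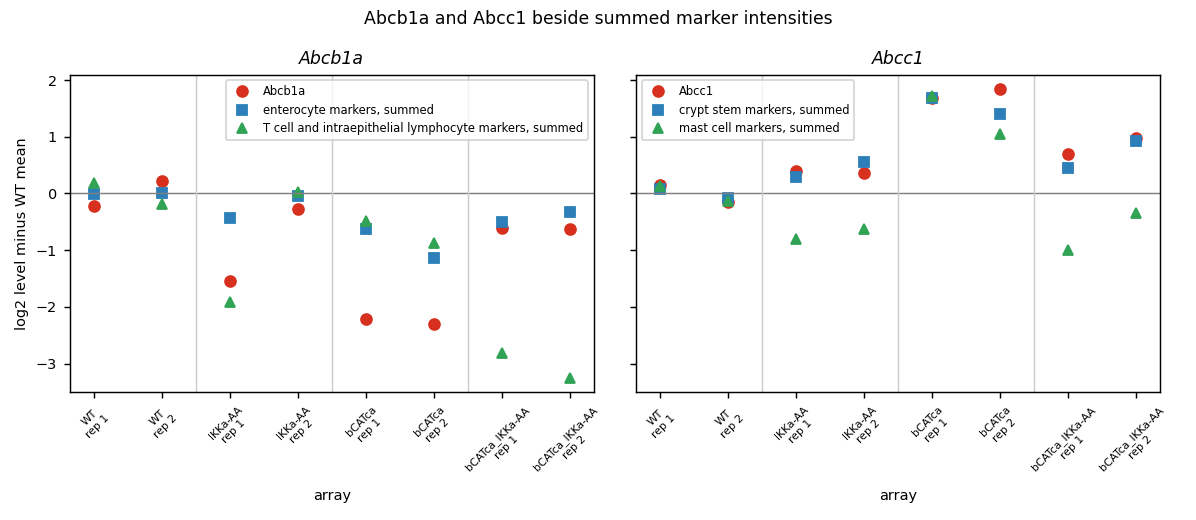
Abcb1a (left) and Abcc1 (right) on each array (x axis) as log2 level minus the WT mean (y axis), beside summed intensities of enterocyte and of T cell and intraepithelial lymphocyte markers (left) and of crypt stem and mast cell markers (right). On the bCATca arrays Abcb1a and the enterocyte markers are below the WT mean, and Abcc1, crypt stem and mast cell markers are above it.

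Summed markers of several cell types differed between the same groups, some in the direction of Abcb1a or Abcc1 and some against it. The summed intensity of 10 enterocyte markers was 52100 and 52810 (WT), 38900 and 50810 (IKKa-AA), 34080 and 23770 (bCATca), and 37140 and 41910 (double mutants), and 5 of the 10 fell in bCATca against WT. T cell and intraepithelial lymphocyte markers (9, with Cd2 near background on all arrays) summed to 8523 and 6535 (WT), 1989 and 7562 (IKKa-AA), 5337 and 4066 (bCATca), and 1062 and 784.6 (double mutants). The sums were lower in double mutants than in bCATca, where Abcb1a read higher. None of the 9 passed the test in bCATca against WT or in double mutants against bCATca, while 4 fell in double mutants against WT (median -3.09). Crypt stem markers (5) summed to 574.9 and 514.9 (WT), 667.2 and 797.8 (IKKa-AA), 1738 and 1430 (bCATca), and 741.1 and 1039 (double mutants), and 3 of the 5 rose in bCATca against WT. Mast cell markers (5, with Ms4a2 near background on all arrays) summed to 195.3 and 163.3 (WT), 102.6 and 116.2 (IKKa-AA), 587.8 and 368.8 (bCATca), and 89.69 and 140.4 (double mutants). Of these, 3 rose in bCATca against WT and 3 fell in double mutants against bCATca. Of 3 Paneth cell markers, 2 rose in bCATca against WT (median 1.89) and 1 fell in double mutants against bCATca (median -0.96). Of 7 enteroendocrine markers, 4 fell and 1 rose in bCATca against WT. B and plasma cell markers (5) summed to 118.5 and 119.1 in double mutants, against 3940 and 2948 in bCATca. The differences of all 5 were below 0, from -5.98 to -0.11, and 2 of them were called. The part of these cells in the changes of Abcb1a, Abcc1, Abca3 and Abcd3 was not tested.

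The AA allele alone gave no call among the members. In IKKa-AA against WT, limma called 0 of 36, against 0.00807% of all genes; at an unadjusted p under 0.05 there were 6 members (16.7%), 1 higher and 5 lower, against 11.7% of all genes. The differences of lowest p were those of Abca3 (-0.74, SE 0.20, limma adjusted p = 0.306) and Abca8b (-0.53, limma adjusted p = 0.306), the latter near background. Abcb1a differed by -0.91 (limma adjusted p = 0.388), Abcc2 by -0.77 (0.505), Abcc3 by 0.45 (0.396) and Abcc1 by 0.38 (0.428).

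The IKKa-AA replicates differed more than 2-fold for 3 members, Abca1 (gap 2.79), Abcc2 (1.498) and Abcb1a (1.28), each lower in replicate 1. No member differed by as much between the replicates of the 3 other groups. Over all genes, 3.16% differed more than 2-fold between the IKKa-AA replicates, against 0.67% to 1.35% in the other groups. The median gap of the members was 0.21 in IKKa-AA, against 0.20 for all genes. With IKKa-AA replicate 1 left out, the difference against WT was -0.27 for Abcb1a, 0.55 for Abca1 and -0.02 for Abcc2. With replicate 2 left out these were -1.55, -2.25 and -1.52. The 3 genes were picked by the gap between these 2 arrays, so such fits cannot test them.

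**Figure D5:**
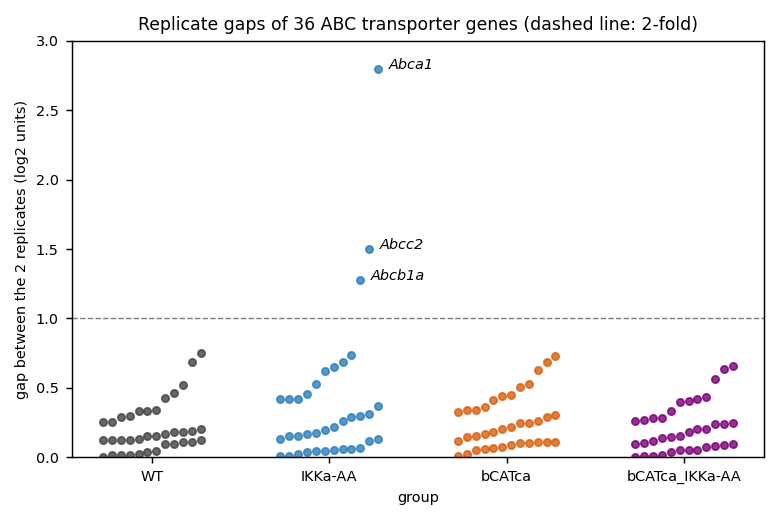
Absolute gap between the replicates of a group (y axis, log2 units) for each of the 36 ABC transporter genes in the 4 groups (x axis); the dashed line marks 2-fold. Abca1, Abcc2 and Abcb1a lie above the line in IKKa-AA and no gene does in the other groups.

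In double mutants against IKKa-AA, limma called 0 of 36 members, against 0.0565% of all genes, and 1 member, Abcc1 (0.45, SE 0.16, limma adjusted p = 0.623), had an unadjusted p under 0.05, against 6.93% of all genes. In double mutants against WT, 0 of 36 were called, against 1.44% of all genes, and 7 (19.4%) had an unadjusted p under 0.05, against 16.9%. Abcb11, among the 7, is near background. The nearest to the threshold were Abcc1 (0.83, SE 0.16, limma adjusted p = 0.0533) and Abca3 (-0.89, SE 0.20, limma adjusted p = 0.073). Abcb1a differed by -0.62 in that comparison (SE 0.35, limma adjusted p = 0.409).

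The interaction asks whether the β-catenin effect differed between AA and normal IKKα; it is double mutants minus IKKa-AA, less bCATca minus WT. No member of 36 passed, against 0.0888% of all genes. Of the 36, 9 had an unadjusted p under 0.05, against 15.7% of all genes, and 8 of the 9 lay above 0. Abca8a and Abca8b, among these 8, are near background. The interaction was -1.31 for Abcc1 (SE 0.23, limma adjusted p = 0.0678) and 2.54 for Abcb1a (SE 0.50, limma adjusted p = 0.0882). The Abcb1a value was 1.90 without IKKa-AA replicate 1 and 3.18 without IKKa-AA replicate 2. The absence of a call did not hold in those fits, each of which rests on 1 IKKa-AA array. When any other array was left out, the Abcb1a value ran from 2.33 to 2.76. Abcc2 and Abca1 had values of 1.59 (SE 0.61, limma adjusted p = 0.273) and 2.11 (SE 1.07, limma adjusted p = 0.366). Without IKKa-AA replicate 1 these were 0.84 and 0.72, and without IKKa-AA replicate 2 they were 2.34 and 3.51. All 7 members of subfamily A lay above 0, against 50.3% of all genes, and 3 of the 7 are near background.

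Transcription factors that are known to act on ABC genes were read from a list of 16, of which 14 were measured. In bCATca against WT, 4 of the 14 fell and 0 rose, where 3.55% of all genes fell and 5.74% rose. Ppara, a receptor for fatty acids, fell by 1.47 (limma adjusted p = 0.0176). Nr1h3, the liver X receptor α that drives Abca1, Abcg5 and Abcg8, fell by 1.08 (0.00929). Nr1i2, the pregnane X receptor that drives Abcb1a, fell by 0.99 (0.0277), and Nfe2l2, the oxidant sensor NRF2 that acts on several Abcc genes, fell by 0.76 (0.0231). Nr1i2 read 8.41 and 8.16 (WT), 7.79 and 7.93 (IKKa-AA), 7.45 and 7.13 (bCATca), and 7.96 and 8.51 (double mutants). Its bCATca arrays were the lowest of the 8 and its double mutants overlapped WT. Whether these factors had a part in the changes of the ABC genes was not tested.

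Each of these 4 calls was lost without WT replicate 2 or without bCATca replicate 2, at limma adjusted p from 0.0719 to 0.165. Those of Nr1i2, Nr1h3 and Ppara were lost without WT replicate 1, at 0.139, 0.0626 and 0.0708, and that of Nfe2l2 without bCATca replicate 1, at 0.0564. With the replicate block, that of Nr1i2 was lost at 0.0527. In double mutants against bCATca limma called 0 of the 14, with 4 at an unadjusted p under 0.05 (Nr1h3, Nr1h4, Nr1i2 and Ppara); the smallest limma adjusted p-values were 0.0824 for Nr1i2 (difference 0.95) and 0.0957 for Nr1h3 (0.70). Vdr, the vitamin D receptor, differed by -1.03 between bCATca and WT (limma adjusted p = 0.0577).

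Of 10 bile acid and sterol partners 7 were measured, and limma called 0 in bCATca against WT, with 1 at an unadjusted p under 0.05, Slc51a (difference -0.72, limma adjusted p = 0.121). Slc51a, the basolateral bile acid exporter subunit, read 9.29 to 10.55 over the 8 arrays, and Apoa1, the acceptor of Abca1, read 13.17 to 13.84. Of the ABC proteins that carry other symbols, Cftr, the chloride channel, read 8.16 to 9.07. Tap1, a peptide transporter of antigen presentation, read 8.17 and 7.61 (WT), 9.67 and 8.47 (IKKa-AA), 8.59 and 8.91 (bCATca), and 9.62 and 9.88 (double mutants). Its difference between bCATca and WT was 0.86 (limma adjusted p = 0.155) and that between double mutants and WT 1.86 (limma adjusted p = 0.0506). Limma called none of Tap1, Tap2 and Cftr in any of the 6 comparisons, and Cftr had no unadjusted p under 0.05.

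Other families that handle the same compounds give a measure for these counts. Of 63 cytochrome P450 genes, 1 was higher and 12 were lower in bCATca against WT, with a median of -0.41. Of 47 conjugating (phase II) genes, 1 was higher and 18 were lower, with a median of -0.82, and of 262 solute carriers 21 were higher and 33 lower, with a median of -0.14. The ABC members had 1 higher and 3 lower of 36; the differences between families were not tested.

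Where a member had more than 1 probe set above background, the sets can be read against each other. With a mean over the 8 arrays above 4.03 as the rule here, this held for 10 members, and in bCATca against WT all sets had the same sign in 6 of the 10: Abca3, Abcb1a, Abcb9, Abcb10, Abce1 and Abcf3. In Abcb8, Abcc5, Abcd4 and Abcf1 the signs were mixed. For Abcd3, Abcc2 and Abcg2 no second probe set above background was at hand. The brightest sets of Abcc2, Abce1, Abcf1 and Abcg4 carry the platform's mark for probes shared by related transcripts, so their readings may hold more than 1 transcript.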

How the data were processed

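Expression was measured in 8 samples on Affymetrix arrays, 2 for each of 4 genotypes, from 200 ng of total RNA per sample. The deposited values are linear intensities, 1 per probe set and array, made by the authors with RMA and the affy package per the submitters' processing notes, with no version given in the sources used here. RMA summarises on a log scale, so a return to linear values must have followed, which is inferred from their range. RMA also sets the arrays to a common distribution, so changes are relative to the bulk of genes.

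Of 22690 probe sets, 20380 had 1 symbol in the platform annotation, 691 several, 1555 none and 64 were controls, and no probe set with several symbols held an Abc symbol. Entrez IDs of 20351 were matched to RefSeq, and 0 symbols changed. The kinase's own gene was not analysed here. Log2 was taken with no pseudocount and no filter on dim probe sets, and limma 3.58.1 in R 4.3.3 (lmFit with 1 mean per group on all 8 arrays, eBayes) was run with Benjamini-Hochberg adjustment over 12393 genes, with 4 residual and 4.28 prior degrees of freedom. Tables and figures used Python 3.11.15, pandas 2.3.3, numpy 2.4.6 and matplotlib 3.10.9.

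Members named with their values were those called in any comparison and a list of well-known intestinal, liver and translation members, of which Abcc4 had no single-symbol probe set here; Abcb10, Abcg4 and others outside it were named after their values were seen. The members, marker lists, related genes and the background reading were chosen with earlier results of these data known. Alternatives were another normalisation, pseudocount, filter, choice of probe set, prior and set of arrays, a replicate block, and each array left out.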

Additional observations from a re-analysis of the deposited data

How the results depend on the processing

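Replicate numbers do not pair the samples by the check made: deviations of same-numbered arrays correlated at -0.45 to 0.15 over genes. A fit with the replicate block called 2 members in bCATca against WT in place of 4 (5.66% of all genes in place of 9.29%). In double mutants against bCATca it called 0 in place of 1 (0.581% of all genes in place of 1.21%). The latter count was also 0 after quantile normalisation, after cyclic loess, with genes above the median level (a filter that removes Abcc1), with the mean of probe sets and with every probe set tested. With only the arrays of the groups compared the count was 2, with 2.67% of all genes called. That setting called 3 members (Abca3, Abcc1 and Abcg2) in double mutants against WT in place of 0. Of all genes it called 6.58% there in place of 1.44%. With 1 array left out, the count differed by the array, and in bCATca against WT it was largest in the fits that called the most of all genes. It stayed 0 in double mutants against IKKa-AA. The lone array of a group is then assumed to vary like the others. Of the other values recomputed, 1636 kept their call or, where not called, moved by less than their error, 28 lost a call, 27 gained one and 91 moved further; none of those past the test changed sign. The causes were not tested. Readings near background limit what can be said of the 8 members at or under 4.03.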
